A study of Mus musculus with 8 samples.

Results

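The DNA replication machinery was described here through 47 genes, out of 19937 genes measured on the arrays. The genes were chosen for what their products do: 9 act in origin licensing, 14 form or activate the replicative helicase, 10 are subunits of the polymerases and primase, 11 make up the sliding clamp, its loader, the single-strand binding complex and the lagging-strand enzymes, and 3 supply nucleotides. All 47 were measured by a probe set with 1 gene symbol, and 49 such probe sets carried their symbols. The probe set of highest mean signal was used for each gene, and Pcna and Rpa3 had a second one.

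RNA came from 8 samples labelled B-lymphoid, of mouse cells with the strain label SW129/C57BL/6J, and each was hybridised to 1 array. The labels put 4 samples in the c-jun knockout group, which lacks a gene for an AP-1 transcription factor, and 4 in the wild-type group. The series title concerns lymphoid leukemia induced by BCR-ABL, but no sample label states that the cells carried it, in which cells the deletion was made, or that samples of 1 genotype are separate animals or cultures. The p-values therefore measure the spread among these 8 arrays alone, and that spread may be technical. Sample titles follow 2 schemes. Replicates 3 and 4 of each genotype have D or F titles, and replicates 1 and 2 of each have RO titles. The D titles are both knockout and the F titles both wild type, so anything those letters mark cannot be told apart from genotype.

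A replication origin is licensed in G1, when the origin recognition complex, with CDC6 and CDT1, loads the MCM2-7 ring onto DNA. The kinase CDC7 with its activator DBF4 then acts on the ring, CDC45 and the GINS complex join it, and the active helicase unwinds the fork. Polymerase alpha with primase starts each strand, polymerases epsilon and delta extend it on the PCNA clamp, and FEN1 and LIG1 join the lagging-strand pieces. Transcription of many of these genes is driven by E2F factors, which the RB proteins hold in check until cyclin D kinases such as CDK6 phosphorylate RB.

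Values are log2 signals as deposited, with array medians between 6.93 and 7.42. Jun was at 6.99, 6.46, 7.02 and 6.97 in knockout replicates 1 to 4, against 8.82, 8.84, 10.55 and 8.77 in wild-type replicates 1 to 4. Cdk6 was at 9.69, 8.66, 10.11 and 6.79 in knockout samples, against 11.11, 11.002, 11.50 and 11.58 in wild-type samples. Both genes were lower in 4 of 4 knockout samples than in any wild-type sample. The B-lineage genes Cd79a, Cd79b, Pax5, Ebf1, Vpreb1 and Igll1 lay between 10.91 and 14.21 on every array, well above the array medians, whereas Cd3e, Cd3g, Cd4 and Cd8a of T cells lay between 5.62 and 7.75. Rag1, which acts in immunoglobulin gene rearrangement, ranged from 6.17 to 10.43. Of 6 myeloid genes 2 were higher on average in knockout samples, and of 6 T and natural killer genes 0 were. Single arrays stood out in both directions: Lyz2 was at 10.63 and 10.64 in knockout replicates 1 and 2, Fcgr3 at 9.39 and 10.09 in wild-type replicates 2 and 3, and Klrb1c at 8.93 in knockout replicate 4 and 10.54 in wild-type replicate 3. Their part in the results was not tested. Wild-type replicate 1 stood apart from the other arrays. Among the 9968 genes in the brighter part of the signal range, which includes all 47 replication genes, it gave the lowest of the 8 signals for 23.9% and the highest for 25.3%. The largest share for any other array was 21% for the lowest signal and 15.9% for the highest. Values without that array are given beside many of the results it moved, but not all. In RO-titled samples and in the interaction, such values leave wild-type replicate 2 as the only RO-titled wild-type sample.

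Replication genes were well expressed in all samples, and 0 of them passed the test between genotypes. All 47 lay above the median gene signal of every array. In a limma fit with genotype and title scheme as terms, 0 of 47 passed Benjamini-Hochberg adjustment over all genes, and the lowest adjusted p among them was 0.878. Over all genes 0.00502% passed. Jun (-2.38, limma adjusted p = 0.106) and Cdk6 (-2.48, limma adjusted p = 0.878) did not pass either. At an unadjusted p under 0.05, 2 of the 47 were higher in knockout samples (Orc6 and Gmnn) and 0 were lower, where 0.537% and 1.72% of all genes were. The knockout and wild-type signals overlapped for each of the 47, while 0.266% of all genes had all 4 knockout samples higher and 1.03% had all 4 lower. On average 36 of the 47 were higher in knockout samples, with a median log2 difference of 0.10. Over all genes 28% were higher and the median was -0.11; over the brighter 9968 genes 44% were higher and the median was -0.028. With each array centred on its median, 44 of the 47 were higher and the median of all genes was 0.040 in place of -0.11. In bulk RNA, the share of cells in S phase and the amount of transcript per cell cannot be told apart.

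**Figure D1:**
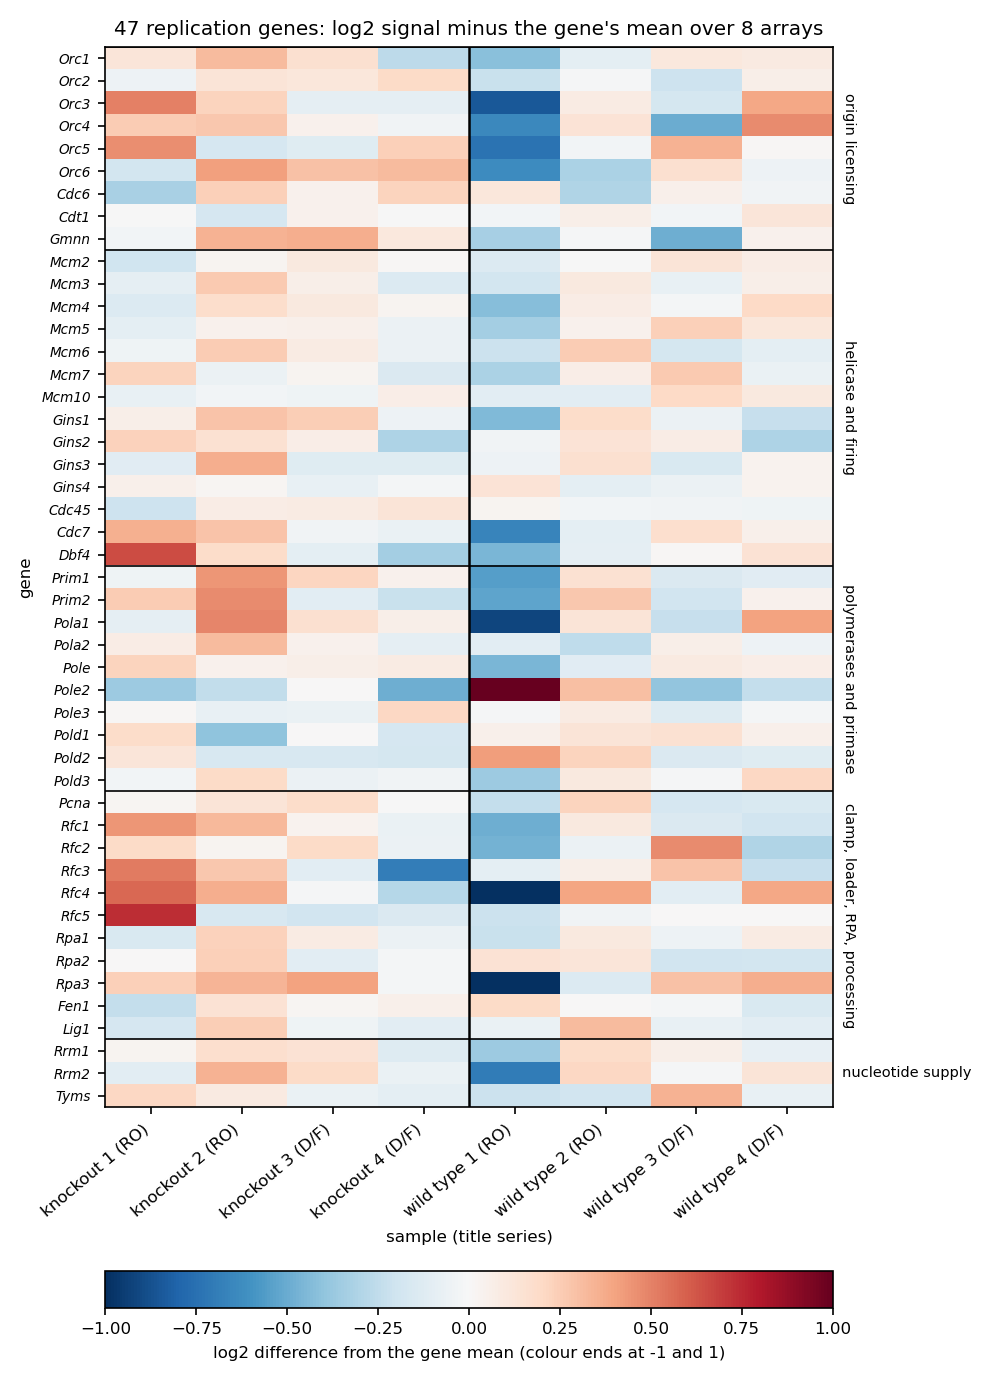
Each row is 1 of the 47 replication genes, grouped by role, and each column 1 sample, with the title scheme in brackets. Colour is the log2 signal minus the gene's own mean over the 8 arrays, from -1 (blue) to 1 (red). The column of wild-type replicate 1 is mostly blue, with the lowest of the 8 signals for 30 genes, and Pole2 and Pold2 are among the 4 genes that are highest there.

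Origin licensing held the 2 genes of smallest p. Of its 9 genes 8 were higher on average in knockout samples, with a median log2 difference of 0.21. Leaving out wild-type replicate 1, 6 of 9 were higher, with a median of 0.061. Orc6, the smallest subunit of the origin recognition complex, was at 10.92, 11.51, 11.40 and 11.43 in knockout replicates 1 to 4, against 10.47, 10.79, 11.27 and 11.05 in wild-type replicates 1 to 4. Within each title scheme both knockout samples lay above both wild-type samples, and only knockout replicate 1 lay inside the wild-type range. The log2 difference was 0.42 (SE 0.16, limma adjusted p = 0.878), or 1.34-fold, and it was 0.25 in D/F-titled and 0.59 in RO-titled samples. Without wild-type replicate 1 it was 0.32, and leaving out single arrays moved it between 0.27 and 0.50.

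Gmnn encodes geminin, which binds CDT1 and blocks licensing outside G1. It was at 8.70, 9.07, 9.09 and 8.83 in knockout samples, against 8.39, 8.71, 8.24 and 8.77 in wild-type samples, so that knockout replicate 1 lay below the 2 highest wild-type samples. The log2 difference was 0.39 (SE 0.18, limma adjusted p = 0.878). It was 0.46 in D/F-titled and 0.33 in RO-titled samples, and the difference between these did not pass (limma adjusted p = 0.891). Cdt1, the licensing factor that geminin binds, had a difference of -0.063 (SE 0.12) and varied little, with an SD of 0.084 over the 8 arrays.

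The other subunits of the origin recognition complex had their lowest signal in wild-type replicate 1. Orc2 was at 10.34, 10.52, 10.50 and 10.58 in knockout samples, against 10.17, 10.38, 10.18 and 10.45 in wild-type samples, a log2 difference of 0.19 (SE 0.14). Orc3 was at 11.19, 10.90, 10.59 and 10.59 in knockout samples, against 9.83, 10.76, 10.51 and 11.07 in wild-type samples. Its wild-type replicate 1 was the lowest of the 8 signals, and the log2 difference of 0.27 (SE 0.25) was -0.0078 without that array. Orc1, Orc4 and Orc5 had differences of 0.16, 0.27 and 0.21, and of 0.038, 0.061 and -0.0013 without it. Cdc6, the ATPase that recruits the ring together with CDT1, did not follow this order: it was at 8.86, 9.42, 9.23 and 9.41 in knockout samples, against 9.30, 8.88, 9.23 and 9.15 in wild-type samples, with a difference of 0.089 (SE 0.17). The lowest Cdc6 signals were in knockout replicate 1 and wild-type replicate 2.

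The MCM2-7 ring itself was nearly level between genotypes. Mcm2 was at 11.67, 11.90, 11.97 and 11.88 in knockout samples, against 11.74, 11.87, 12.003 and 11.94 in wild-type samples, a log2 difference of -0.032 (SE 0.12). The other 5 ring subunits had differences between -0.029 (Mcm5) and 0.12 (Mcm6), with SEs between 0.14 and 0.15. These ran between -0.14 (Mcm5) and 0.030 (Mcm6) without wild-type replicate 1. All 5, but not Mcm2, had their lowest signal in wild-type replicate 1. Mcm10, which helps to activate the loaded helicase, had -0.041, and Cdc45 had 0.040. Of the GINS subunits, Gins1 was at 10.38, 10.60, 10.56 and 10.26 in knockout samples, against 9.88, 10.50, 10.26 and 10.09 in wild-type samples, a difference of 0.27 (SE 0.17), or 0.14 without wild-type replicate 1. Gins2, Gins3 and Gins4 had 0.067, 0.0026 and -0.012, each smaller than the Gins1 value. Gins4 varied least of all 47 genes, with an SD of 0.076 over the 8 arrays.

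The kinase that fires origins differed in opposite directions in the 2 title schemes. Cdc7, the catalytic subunit, was at 9.18, 9.10, 8.78 and 8.76 in knockout samples, against 8.16, 8.73, 8.99 and 8.87 in wild-type samples. Dbf4, its activator, was at 11.49, 11.01, 10.73 and 10.49 in knockout samples, against 10.37, 10.74, 10.84 and 10.98 in wild-type samples. For both genes the 2 D/F-titled knockout samples lay below the 2 D/F-titled wild-type samples, and the 2 RO-titled knockout samples lay above the 2 RO-titled wild-type samples. The log2 difference of Cdc7 was -0.16 in D/F-titled and 0.69 in RO-titled samples (interaction -0.86). That of Dbf4 was -0.30 in D/F-titled and 0.69 in RO-titled samples (interaction -0.99). Both had an unadjusted limma p under 0.05, and neither passed adjustment over all genes (limma adjusted p = 0.716). Without wild-type replicate 1 the interactions were -0.58 for Cdc7 and -0.81 for Dbf4, and both kept opposite signs in the 2 schemes.

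**Figure D2:**
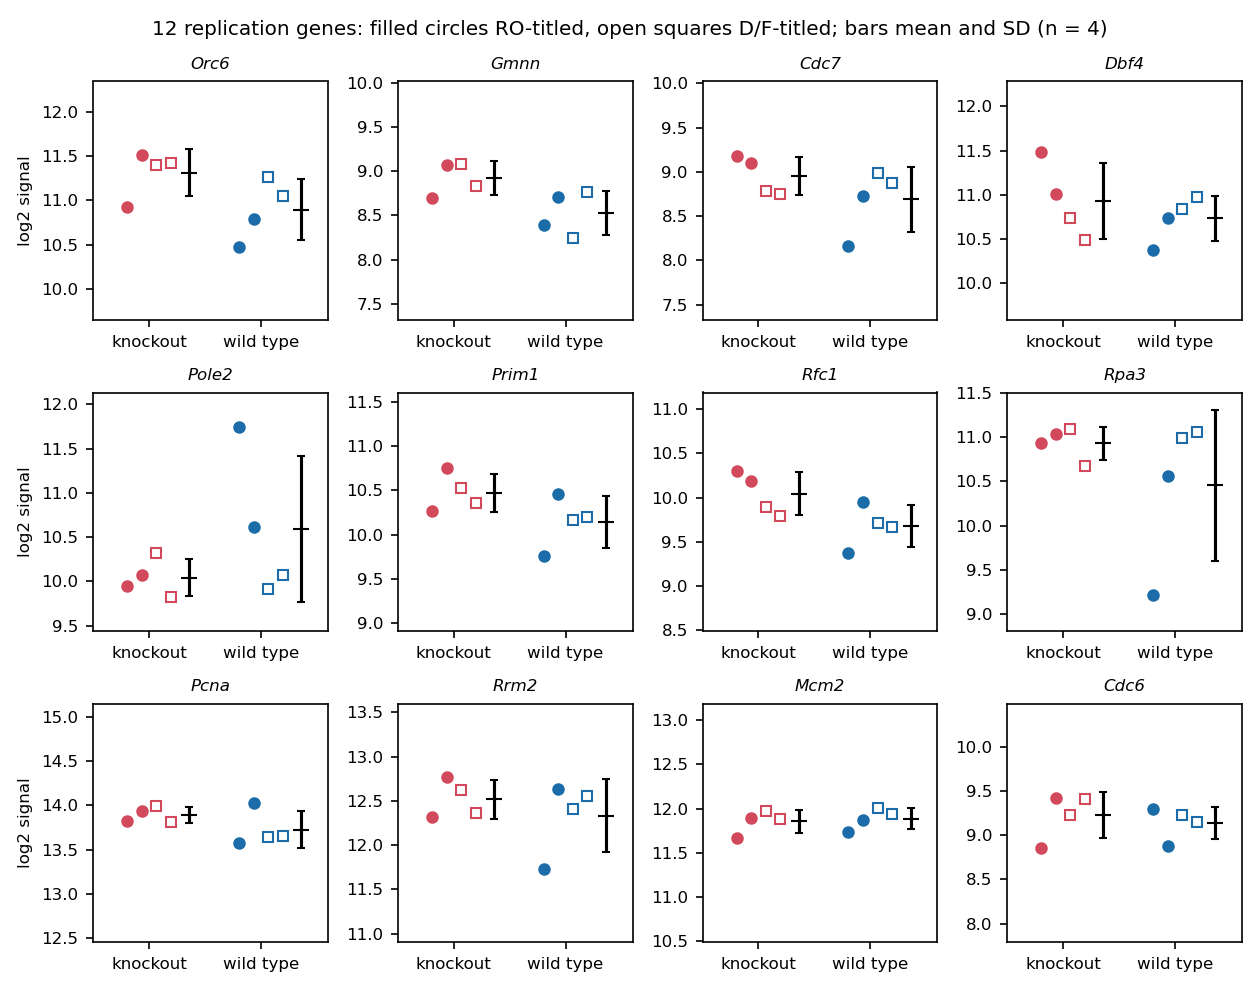
Log2 signals of 12 replication genes in knockout (red, left) and wild-type samples (blue, right), with filled circles for RO-titled and open squares for D/F-titled samples, and the mean with SD (n = 4) beside each group. Every panel spans the same number of log2 units; the groups overlap in all 12, and a single wild-type circle, replicate 1, lies far from the rest for Pole2, Rpa3 and Rrm2.

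Subunits of the polymerases differed in both directions on average. Prim1, the catalytic subunit of primase, was at 10.27, 10.75, 10.52 and 10.35 in knockout samples, against 9.76, 10.46, 10.16 and 10.20 in wild-type samples. Its log2 difference was 0.33 (SE 0.18), with 0.26 in D/F-titled and 0.40 in RO-titled samples, and 0.18 without wild-type replicate 1. Pola1, the catalytic subunit of polymerase alpha, had 0.31 (SE 0.25), which was 0.043 without that array. Pole2, the second subunit of polymerase epsilon, went the other way: it was at 9.95, 10.07, 10.32 and 9.83 in knockout samples, against 11.74, 10.62, 9.92 and 10.08 in wild-type samples. The 2 RO-titled wild-type samples were the highest of the 8, and the D/F-titled wild-type samples lay among the knockout ones. The log2 difference of Pole2 was 0.074 in D/F-titled and -1.17 in RO-titled samples (interaction 1.24, limma adjusted p = 0.716, or 0.68 without wild-type replicate 1), and the RO-titled value was the largest in size of the 47. Without wild-type replicate 1 the pooled difference of -0.55 (SE 0.29) was -0.20. Pole, which encodes the catalytic subunit of the same enzyme, had 0.21 (SE 0.15), or 0.095 without that array.

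Polymerase delta was measured through Pold1, Pold2 and Pold3. Pold2, its accessory subunit, was at 12.29, 12.001, 12.01 and 11.99 in knockout samples, against 12.59, 12.38, 12.02 and 12.05 in wild-type samples. Both knockout samples lay below both wild-type samples within each scheme, by -0.036 in D/F-titled and -0.34 in RO-titled samples. The pooled difference was -0.19 (SE 0.13), or -0.12 without wild-type replicate 1, and it was -0.19 (SE 0.15) for the catalytic subunit Pold1 and 0.034 (SE 0.15) for Pold3.

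Pcna encodes the sliding clamp that holds polymerases on DNA. It was at 13.82, 13.93, 13.99 and 13.81 in knockout samples, against 13.57, 14.03, 13.64 and 13.65 in wild-type samples, where replicate 2 was the highest of all 8. The log2 difference was 0.16 (SE 0.12), with 0.25 in D/F-titled and 0.078 in RO-titled samples. The pooled difference was 0.090 and the RO-titled one -0.15 without wild-type replicate 1. After quantile normalization of all arrays the difference was 0.01 in D/F-titled and 0.26 in RO-titled samples. The scheme with the larger difference therefore depended on the scaling. The second Pcna probe set had a pooled difference of 0.46, and was at 12.86 in wild-type replicate 1 against 13.27 to 13.80 in the other wild-type samples. Mouse Pcna has processed pseudogene copies, and which copy that probe set reads was not analysed here.

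Of the clamp loader, Rfc1, its large subunit, was at 10.30, 10.19, 9.90 and 9.79 in knockout samples, against 9.37, 9.96, 9.72 and 9.67 in wild-type samples. Knockout samples lay above wild-type samples within each scheme, and the log2 difference was 0.37 (SE 0.17, limma adjusted p = 0.878), or 1.29-fold, and 0.21 without wild-type replicate 1. Of the small subunits, Rfc2, Rfc4 and Rfc5 had 0.18, 0.32 and 0.12, with Rfc4 at 9.63 in wild-type replicate 1 against 10.67 to 11.53 elsewhere. Without that array they had 0.057, -0.14 and 0.029, so the sign of Rfc4 turned. Rfc3 was at 11.09, 10.84, 10.47 and 9.88 in knockout samples, against 10.47, 10.63, 10.86 and 10.34 in wild-type samples, which gave -0.0027 (SE 0.21) overall but -0.42 in D/F-titled and 0.42 in RO-titled samples (interaction -0.84, limma adjusted p = 0.716). The pooled value was -0.12 and the interaction -0.76 without wild-type replicate 1.

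The subunits of RPA, which coats single-stranded DNA, differed in how much 1 array weighed. Rpa3 was at 10.93, 11.03, 11.09 and 10.67 in knockout samples, against 9.22, 10.56, 10.99 and 11.06 in wild-type samples. Its log2 difference of 0.48 (SE 0.30), the highest of the 47, was 0.085 without wild-type replicate 1, and the second Rpa3 probe set gave 0.30 with all arrays. The D/F-titled difference was -0.14 and the RO-titled one 1.09 (interaction -1.24, limma adjusted p = 0.716, or -0.57 without wild-type replicate 1). Rpa2 was at 10.85, 11.08, 10.74 and 10.83 in knockout samples, against 10.99, 10.96, 10.66 and 10.66 in wild-type samples, a difference of 0.057 (SE 0.13), and Rpa1 had 0.047 (SE 0.14). The flap endonuclease gene Fen1 and the ligase gene Lig1 had -0.012 and -0.036.

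The 3 genes of nucleotide supply were all lowest in wild-type replicate 1. Rrm2, the regulated subunit of ribonucleotide reductase, was at 12.32, 12.78, 12.62 and 12.36 in knockout samples, against 11.73, 12.63, 12.41 and 12.55 in wild-type samples. The log2 difference of 0.19 (SE 0.20) became -0.032 without wild-type replicate 1. Rrm1, the large subunit, was at 12.88, 13.02, 12.996 and 12.72 in knockout samples, against 12.49, 13.04, 12.92 and 12.77 in wild-type samples, a difference of 0.10 (SE 0.14), or -0.023 without that array. Tyms, thymidylate synthase, was at 11.33, 11.21, 11.05 and 11.02 in knockout samples, against 10.91, 10.93, 11.47 and 11.05 in wild-type samples, a difference of 0.065 (SE 0.16), or 0.0033 without wild-type replicate 1.

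The genotype comparison was then made within each title scheme. In D/F-titled samples 19 of 47 genes were higher in knockout samples, with a median of -0.025, and the sizes ran up to 0.46 (Gmnn). In RO-titled samples 37 of 47 were higher, with a median of 0.21. Differences over 0.3 in size numbered 2 in D/F-titled samples, where 13.2% of all genes had one, and 24 in RO-titled samples, where 52.6% did. After quantile normalization the numbers were 2 in D/F-titled samples, against 12.8% of all genes, and 20 in RO-titled samples, against 24.2%. With arrays centred on their medians 15 of 47 were higher in D/F-titled and 45 of 47 in RO-titled samples. Over all genes 52.4% were higher and the median was 0.0097 in D/F-titled samples, against 26.5% and -0.25 in RO-titled samples. Over the brighter 9968 genes these were 45.7% and -0.019 in D/F-titled samples, against 47% and -0.026 in RO-titled samples. By limma 0 of 47 passed adjustment in either scheme or in the interaction, where 0.00502% (D/F), 0.0401% (RO) and 0.0301% (interaction) of all genes did. At an unadjusted p under 0.05 there were 0 in D/F-titled samples, where 0.868% of all genes were higher and 1.02% lower. In RO-titled samples 6 were higher (Orc3, Orc6, Cdc7, Dbf4, Rfc1 and Rpa3) and Pole2 was lower, where 2.15% and 6.24% of all genes were. In the interaction, which is the D/F-titled minus the RO-titled difference, 5 were below 0 (Orc3, Cdc7, Dbf4, Rfc3 and Rpa3) and Pole2 was above it, where 1.96% and 3.42% of all genes were. Without wild-type replicate 1 these were 1 gene below 0 (Dbf4) and 1 above it (Pcna), where 274 and 340 of all genes were.

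**Figure D3:**
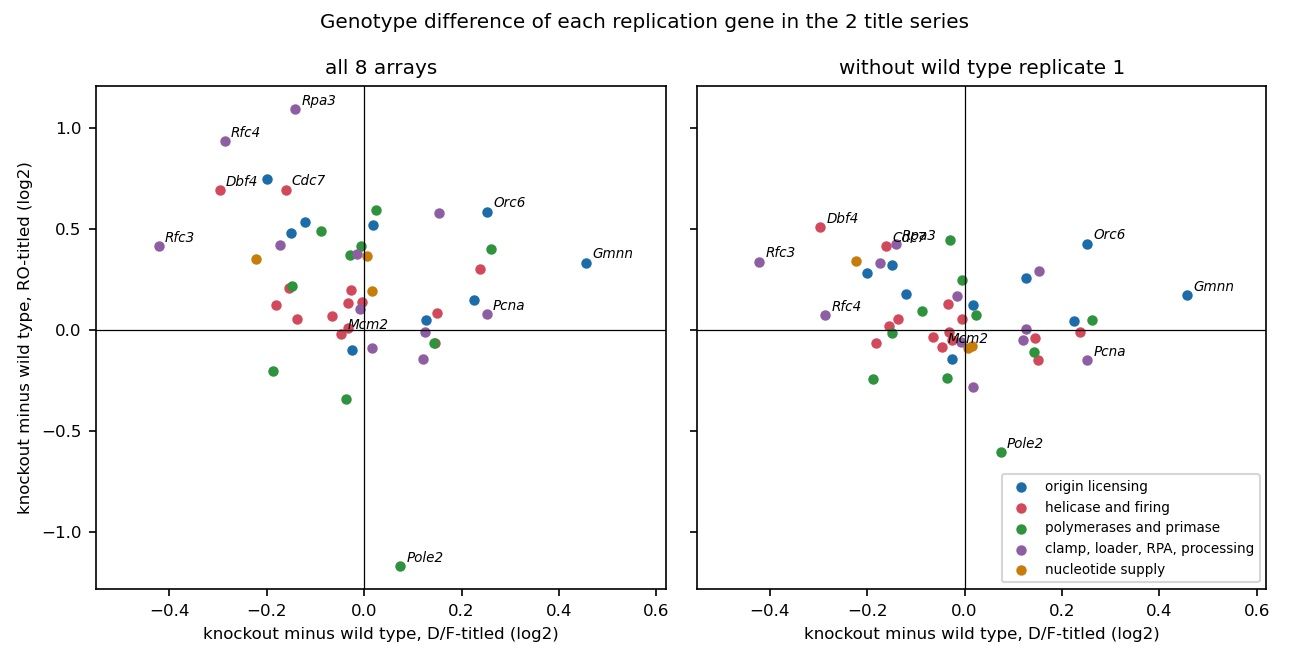
Knockout minus wild-type log2 difference of each replication gene in D/F-titled samples (horizontal) and RO-titled samples (vertical), coloured by role, with all 8 arrays on the left and without wild-type replicate 1 on the right. The RO-titled differences reach 1.09 (Rpa3) and -1.17 (Pole2) on the left and draw closer to 0 on the right, where 27 rather than 37 of 47 are above 0. On the right, wild-type replicate 2 is the only RO-titled wild-type sample.

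Of the 47 genes 13 were higher in knockout samples in both schemes, 4 were lower in both and 30 differed in sign between them. Over all genes 11.5% were higher in both and 32.6% lower in both. Of the 30, 24 were higher in RO-titled and lower in D/F-titled samples, where 15% of all genes were. The other 6 had the reverse, where 40.8% of all genes did. The 13 were Orc2, Orc4, Orc6, Cdc6, Gmnn, Mcm6, Gins1, Prim1, Pola1, Pcna, Rfc1, Rrm1 and Rrm2, and the 4 were Cdt1, Mcm2, Pold1 and Pold2. With wild-type replicate 1 left out the counts were 9 higher in both, 10 lower in both and 28 of unlike sign. Of the 13, 5 (Mcm6, Gins1, Pcna, Rrm1 and Rrm2) were then lower in RO-titled knockout samples. Shares of all genes by sign without that array are not given here. In D/F-titled samples both knockout signals lay above both wild-type signals for 11 genes and below them for 8, where 9.57% and 10.5% of all genes did. In RO-titled samples they lay above for 15 and below for 2, where 8.71% and 45.5% of all genes did. Without wild-type replicate 1 these counts were 16 and 8, where 17.2% and 52.8% of all genes did, and over both schemes 0 and 0, where 0.652% and 1.47% did. The genes above in both schemes were Orc6 and Rfc1, and the gene below in both was Pold2. The share of all genes that lay above or below in both schemes was not computed.

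Wild-type replicate 1 carried much of the RO-titled difference. It gave the lowest of the 8 signals for 30 of 47 replication genes (63.8%), against 12.5% of all genes and 23.9% of the brighter ones. After quantile normalization, which gives every array the same distribution, it did so for 24 of 47 (51.1%). The share was then 16.2% of all genes and 24.8% of the brighter ones. By role, the 30 genes as deposited were 6 of 9 licensing genes, 9 of 14 helicase genes, 5 of 10 polymerase and primase genes, 7 of 11 clamp, loader, RPA and processing genes and 3 of 3 nucleotide genes. It was the highest array for Gins4, Pole2, Pold2 and Fen1. The median deviation of the 47 genes from their own means was -0.23 there, between -0.058 and 0.19 in knockout samples and between -0.022 and 0.072 in the other wild-type samples. The highest was knockout replicate 2, which gave the highest signal for 13 of 47.

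**Figure D4:**
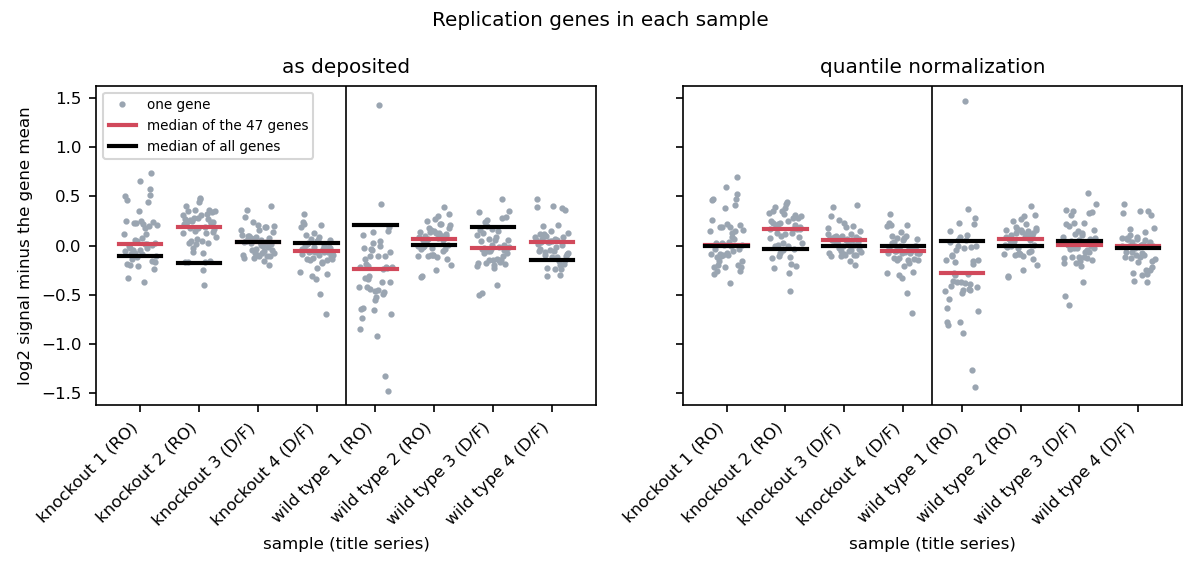
Log2 signal of each replication gene minus its mean over 8 arrays (grey points), with the median of the 47 genes (red) and of all genes (black) in each sample, as deposited (left) and after quantile normalization (right). In wild-type replicate 1 the red line lies below the black one on both scales, at -0.23 as deposited, and in knockout replicate 2 it lies above.

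Without wild-type replicate 1 the RO-titled median was 0.049 rather than 0.21, and the pooled one 0.026 rather than 0.10. The median of all genes was -0.13 rather than -0.25 in RO-titled samples, and -0.047 rather than -0.11 in the pooled comparison. The set's median thus moved closer to that of all genes but stayed above it in both comparisons. Medians of the brighter genes without that array are not given here. The RO-titled knockout samples were then set against wild-type replicate 2 alone, whose spread is assumed to be that of the other groups. By limma at an unadjusted p under 0.05, 0 of 47 then differed in the pooled comparison (105 of all genes were higher and 186 lower), and in RO-titled samples 0 were higher and 1 lower (177 and 311 of all genes). The RO-titled median was smaller than with all arrays in every role: it was 0.18 rather than 0.48 for licensing, -0.0098 rather than 0.13 for the helicase, 0.018 rather than 0.29 for polymerases and primase, 0.072 rather than 0.37 for clamp, loader, RPA and processing, and -0.081 rather than 0.35 for nucleotide supply. Licensing genes kept 8 of 9 higher in knockout samples. The opposite choice, leaving out wild-type replicate 2, set the RO-titled knockout samples against replicate 1 alone, whose spread is then assumed to be that of the other groups. In that fit the RO-titled median was 0.40. The RO-titled log2 difference was 1.76 for Rpa3, 1.79 for Rfc4 and -1.73 for Pole2.

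**Figure D5:**
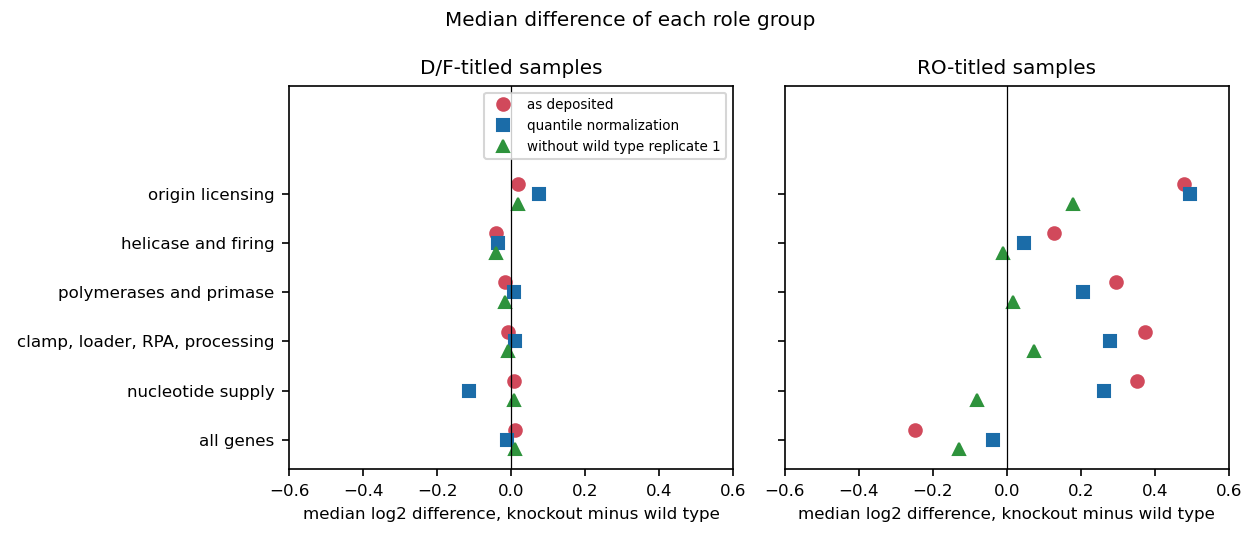
Median log2 difference (knockout minus wild type, horizontal) of each role group and of all genes in D/F-titled (left) and RO-titled samples (right), as deposited, after quantile normalization and without wild-type replicate 1. D/F-titled medians stay close to 0, the farthest at -0.12 for nucleotide supply after quantile normalization, while RO-titled ones reach 0.48 for licensing and are smaller in all 5 groups without wild-type replicate 1.

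Quantile normalization kept the sign of the set's median in each comparison. In D/F-titled samples the set's median lay below that of all genes as deposited and above it after quantile normalization. The pooled median was 0.081, against -0.024 for all genes, with 35 of 47 higher. It was -0.0057 in D/F-titled samples, against -0.011 for all genes, and 0.22 in RO-titled samples, against -0.037 for all genes. By limma 0 of 47 passed adjustment and Orc6 and Gmnn were again the 2 with an unadjusted p under 0.05, where 1.18% of all genes were higher and 2.21% lower. In RO-titled samples 3 were higher at that level (Cdc7, Dbf4 and Rpa3) and 2 lower (Pole2 and Pold2), where 2.66% and 3.2% of all genes were. In the interaction Pole2 was above 0 and Cdc7 and Dbf4 below it, where 2.22% and 2.36% of all genes were. The helicase group's RO-titled median was 0.047, against 0.13 as deposited.

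Between the title schemes themselves, with genotype as a term, 0 of 47 genes passed by limma, where 0.0201% of all genes did. At an unadjusted p under 0.05 Orc6 was higher in D/F-titled than in RO-titled samples (0.36) and Pold2 lower (-0.30), where 1.46% and 1.66% of all genes were. The median of the 47 was 0.012, against 0.051 for all genes.

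Genes that work beside the core machinery were measured in the same way. Of 44 listed genes 43 were measured, and 0 passed the limma adjustment, with 0.878 the lowest adjusted p. Among 26 other replication factors 19 were higher in knockout samples, with a median of 0.072. The count was 12 of 26 and the median -0.011 without wild-type replicate 1. Tipin, a fork protection factor, was at 11.32, 11.72, 11.54 and 11.46 in knockout samples, against 10.63, 11.31, 11.07 and 11.38 in wild-type samples (0.41, SE 0.17). The polymerase epsilon subunit gene Pole4 had 0.29 (SE 0.17), the topoisomerase gene Top1 0.32 (SE 0.23) and the polymerase delta subunit gene Pold4 -0.20 (SE 0.16). Of 7 genes of replication-coupled chromatin 3 were higher, with Slbp, which binds histone mRNA, at 0.32 (SE 0.16), the histone chaperone genes Asf1a and Chaf1b at 0.26 (SE 0.23) and -0.14 (SE 0.14), and the maintenance methyltransferase gene Dnmt1 at 0.073 (SE 0.12). Of 10 other genes of nucleotide synthesis 5 were higher. CTP synthase (Ctps) had 0.26 (SE 0.15), the pyrimidine enzyme gene Cad -0.23 (SE 0.16), thymidine kinase (Tk1) 0.17 (SE 0.14) and the p53-inducible reductase subunit gene Rrm2b -0.16 (SE 0.18). Tipin, Pole4, Top1, Slbp, Asf1a, Dnmt1, Ctps and Tk1 had their lowest signal in wild-type replicate 1. Their differences without that array are not given here.

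Mitotic and proliferation genes outside the machinery were compared in the same samples. Of 9 measured genes 5 were higher on average in knockout samples, with a median of 0.053. The count was 3 of 9 and the median -0.022 without wild-type replicate 1. In D/F-titled samples 2 of 9 were higher, with a median of -0.062, and in RO-titled samples 5 of 9, with 0.18. Relative to the median of all genes their median deviation in knockout replicates 1 to 4 was 0.15, 0.41, 0.0059 and -0.31, against -0.39, 0.15, -0.38 and 0.32 in wild-type replicates 1 to 4. For the 47 replication genes the same quantity was 0.13, 0.36, 0.0071 and -0.083 in knockout replicates, against -0.44, 0.069, -0.21 and 0.18 in wild-type replicates. On this measure both lists were highest in knockout replicate 2 and low in wild-type replicate 1, where the proliferation genes were nearly tied with wild-type replicate 3. After quantile normalization the proliferation genes were highest in wild-type replicate 4 (0.30, against 0.25 in knockout replicate 2), and without subtracting the median of all genes they were lowest in knockout replicate 4 (-0.28, against -0.18 in wild-type replicate 1). The part of cell cycle distribution in the replication genes was not tested.

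Promoter windows were read to see which of these genes share an E2F motif, since E2F factors are known to drive many of them. RefSeq windows of GRCm38.p6, from 250 bases before to 50 after the transcript start, were found for 39 of the 47 genes, in 48 windows. The E2F motif was searched as TTTCGCGC or TTTGGCGC on both strands. It was present in 10 of 39 genes (25.6%), against 0.929% of 27025 genes with a window: Cdt1, Lig1, Mcm3, Mcm5, Mcm6, Mcm7, Orc1, Pola1, Pole2 and Rfc3. The CCAAT box, searched as CCAAT on both strands, was in 59% of the genes, against 41.1% of all genes. The AP-1 motif, TGANTCA, was in the window of Pold3 alone (2.56%), against 8.97% of all genes. The 160 bases before the start are shown for the 5 genes whose E2F match lies wholly before it, and for Orc6, the licensing gene of smallest p, which had none. Capitals mark E2F and CCAAT matches in either orientation, and each line reads 5′ to 3′ on the gene's strand.
Mcm6, chr1:128359706-128359865, minus strand: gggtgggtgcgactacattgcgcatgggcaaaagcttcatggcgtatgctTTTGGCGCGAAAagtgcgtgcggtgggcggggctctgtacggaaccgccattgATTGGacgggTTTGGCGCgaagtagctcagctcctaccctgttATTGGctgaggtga
Mcm5, chr8:75109349-75109508, plus strand: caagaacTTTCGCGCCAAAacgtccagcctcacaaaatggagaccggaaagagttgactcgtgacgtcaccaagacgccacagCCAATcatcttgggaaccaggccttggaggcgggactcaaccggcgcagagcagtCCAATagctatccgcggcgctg
Orc1, chr4:108579294-108579453, plus strand: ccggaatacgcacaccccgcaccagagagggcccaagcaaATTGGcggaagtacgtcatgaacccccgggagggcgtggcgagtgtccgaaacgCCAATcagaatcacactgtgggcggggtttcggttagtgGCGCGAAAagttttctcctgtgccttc
Pola1, chrX:93632156-93632315, minus strand: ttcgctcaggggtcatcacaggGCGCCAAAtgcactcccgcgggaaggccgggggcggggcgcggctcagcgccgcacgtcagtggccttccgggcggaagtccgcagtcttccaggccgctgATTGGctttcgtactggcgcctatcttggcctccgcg
Rfc3, chr5:151651209-151651368, minus strand: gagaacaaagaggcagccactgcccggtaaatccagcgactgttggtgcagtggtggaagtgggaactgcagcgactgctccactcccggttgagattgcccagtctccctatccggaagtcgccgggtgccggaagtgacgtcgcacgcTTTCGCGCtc
Orc6, chr8:85299472-85299631, plus strand: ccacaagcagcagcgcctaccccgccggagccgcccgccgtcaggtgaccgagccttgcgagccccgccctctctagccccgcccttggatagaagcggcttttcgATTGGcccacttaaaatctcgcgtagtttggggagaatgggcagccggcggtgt

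Mcm6 and Mcm5 each hold a pair of overlapping E2F matches in opposite orientation, seen above as 1 run of capitals, and Mcm6 a further one nearer the start. The same summaries are given for genes with and without a match. Of the 10 with a match 6 were lowest in wild-type replicate 1, and of the 29 without one 19 were. The median log2 difference was -0.029 in D/F-titled and 0.13 in RO-titled samples for genes with a match, and -0.029 in D/F-titled and 0.22 in RO-titled samples for those without.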

How the data were processed

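The authors deposited log2 signals for 34760 probe sets on 8 Affymetrix mouse gene arrays, 1 column per sample. MAS5 is the tool named, per the submitters' processing notes; no source used here gives its version or the probe summarization. The values show that each array was scaled to 1 linear mean after trimming 2%, which leaves array distributions unlike each other. Genes were assigned with GEO's platform annotation: 21640 had 1 symbol, 1321 several and 11799 none. Log2 values were fitted with limma 3.58.1 in R 4.3.3 (eBayes with trend). The fit with genotype and title scheme left 5 residual degrees of freedom, and a fit with 4 groups, used within schemes and for the interaction, left 4. P-values were adjusted over 19937 genes at 0.05. Both fits found the direction of known changes in simulated data. Those changes were larger than the differences of the replication genes with all arrays, and recovery of smaller ones was not tested. SEs are those of the moderated coefficients. Each role's 3 genes of smallest p, the 6 of smallest p in the interaction and between schemes, and Mcm2, Cdc6, Pcna and Rrm2 are given per sample; other genes were named after their values were seen. The genes and lists were chosen with earlier results of these data known. Alternatives were quantile normalization, centring on array medians, no scheme term, 2 filters on dim genes, averaged probe sets, no trend, a robust prior, array weights, the scheme as a random block, separate fits and each array left out. The number of arrays limits the precision.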

Additional observations from a re-analysis of the deposited data

Results flagged for a closer look

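Among 94 groups of 4 samples, 2 for each of 47 genes, 5 held a sample set far apart from the other 3, and chance sets 1 apart in about 1 in 20 groups. Rfc5, a small subunit of the clamp loader, was at 12.75 in knockout replicate 1, against 11.81 to 11.86 in the other knockout samples. Pold2 was at 12.29 in the same sample, against 11.99 to 12.01. Gins3 was at 9.65 in knockout replicate 2, against 9.16 to 9.17, and Pold3 at 10.81 there, against 10.56 to 10.60. Lig1 was at 11.53 in wild-type replicate 2, against 11.10 to 11.14 in the other wild-type samples.

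In 3 genes the knockout and wild-type samples separated in opposite directions in the 2 title schemes, with knockout samples above in RO-titled and below in D/F-titled samples. Of all genes 8.71% separated that way in RO-titled and 10.5% in D/F-titled samples. The share of all genes that did both was not computed. The difference between schemes, D/F-titled minus RO-titled, was -0.99 for Dbf4 and -0.86 for Cdc7 (limma adjusted p = 0.716 for both) and -0.19 for Mcm10 (limma adjusted p = 0.766).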

How the results depend on the processing

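By limma 0 of the 47 genes passed in the genotype comparison and between title schemes under every alternative. The interaction depended on single arrays. Without wild-type replicate 2, which leaves replicate 1 as the only RO-titled wild-type sample, it was -2.08 for Rfc4 and -1.91 for Rpa3. Over all genes 1 passed between genotypes, 0 when genes above the median signal were tested, 2 with array weights and 0 to 2 with single arrays left out. The pooled median of the 47 was 0.26 and the RO-titled one 0.53 with arrays centred on their medians, which moves the median of all genes to 0.040. With single arrays left out the pooled median ran from 0.026 to 0.16, the RO-titled one from 0.049 to 0.40 and the D/F-titled one from -0.079 to 0.038, the last changing sign without knockout replicate 4 or wild-type replicate 4. Centring turned Mcm2 to 0.12 and Rfc3 to 0.15. With single arrays left out the log2 difference ran from -0.032 to 0.33 for Rrm2, -0.023 to 0.20 for Rrm1, -0.017 to 0.21 for Tyms, -0.14 to 0.20 for Rfc3, -0.0078 to 0.48 for Orc3, -0.080 to 0.0094 for Mcm2 and -0.016 to 0.21 for Cdc6; the cause was not tested. Dbf4 was 0.0047 without knockout replicate 1. The values are log2, so no pseudocount was used. No paired analysis was possible because the labels carry no replicate numbers. Signals carry no detection calls or read depth.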
